A study of Mus musculus with 3 samples.

Results

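The T cell receptor beta locus of the mouse lies on chromosome 6 and holds the variable (V), diversity (D), joining (J) and constant (C) segments from which the beta chain is made. Its members here were the rows of the deposited table with a receptor biotype and a symbol starting with Trb, which gave 23 of 17796 rows: 21 V rows and 2 C rows (Trbc1 and Trbc2). D and J segments were not analysed here, so no J shares are given. Of the V rows, 20 were annotated as V genes and 1, Trbv24, as a V pseudogene. The rows spanned 667 kb in the mm10 build, from Trbv1 (chr6:40891229-40891885, plus strand) to Trbv31 (chr6:41557691-41558452, minus strand), and each had the same position in GENCODE M21, an annotation of GRCm38.

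The libraries were made from spleen T cells of C57BL/6 mice that were cultured for 3 days on bound anti-CD3 (2 ug/ml) and anti-CD28 (5 ug/ml) with interleukin 2 (100 IU/ml), which makes T cells divide. How the T cells were purified is not given in the labels. The aged fumarate library came from mice, 24 months old when treatment began, that received fumarate, a metabolite of the mitochondrial citrate cycle, at 10 mg/kg 3 times a week for 2 months. The aged vehicle library came from mice of the same age given vehicle on the same schedule, and the young library from mice aged 2 months, labelled vehicle, for which the design states no course of treatment. Each group had 1 library, and whether mice were pooled is not given in the sources used here. Differences below thus carry no p-value and could not be checked in replicates, and all intervals are 95% exact intervals that cover counting error alone, since sequenced reads are not independent molecules.

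During T cell development a D segment is joined to a J segment and a V segment is then joined to this D-J unit, and the joined exon is spliced to Trbc1 or Trbc2. The V segment encodes the first and second loops of the beta chain that contact peptide and MHC, and the V-D-J junction encodes the third. An alpha-beta T cell keeps its V choice when it divides, so the V composition of a T cell pool reads out which cells are in it and how much receptor RNA each makes.

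The Trbv13 family is shown in full because its members lie close together on the chromosome and took different shares of the reads. Trbv12-2 lies between Trbv13-1 and Trbv13-2. The coding part of the V exon is given from 5′ to 3′ as in GENCODE M21 (GRCm38, plus strand) for Trbv13-2 (chr6:41121539-41121832), Trbv13-1 (chr6:41116175-41116468) and Trbv13-3 (chr6:41130292-41130585). Capitals mark the 49 of 294 positions at which the 3 genes do not all carry the same base.
Trbv13-2: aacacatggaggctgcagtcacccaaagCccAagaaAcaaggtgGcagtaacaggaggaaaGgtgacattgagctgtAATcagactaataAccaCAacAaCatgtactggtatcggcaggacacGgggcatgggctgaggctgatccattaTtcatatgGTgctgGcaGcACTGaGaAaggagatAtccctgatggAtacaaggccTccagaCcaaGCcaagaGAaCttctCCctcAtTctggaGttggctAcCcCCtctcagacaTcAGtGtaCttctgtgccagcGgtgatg
Trbv13-1: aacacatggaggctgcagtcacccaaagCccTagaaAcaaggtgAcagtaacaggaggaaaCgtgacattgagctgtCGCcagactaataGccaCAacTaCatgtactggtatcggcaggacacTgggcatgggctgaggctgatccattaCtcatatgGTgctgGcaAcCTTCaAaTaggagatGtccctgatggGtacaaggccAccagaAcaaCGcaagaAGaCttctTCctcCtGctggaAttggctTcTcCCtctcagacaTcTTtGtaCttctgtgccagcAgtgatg
Trbv13-3: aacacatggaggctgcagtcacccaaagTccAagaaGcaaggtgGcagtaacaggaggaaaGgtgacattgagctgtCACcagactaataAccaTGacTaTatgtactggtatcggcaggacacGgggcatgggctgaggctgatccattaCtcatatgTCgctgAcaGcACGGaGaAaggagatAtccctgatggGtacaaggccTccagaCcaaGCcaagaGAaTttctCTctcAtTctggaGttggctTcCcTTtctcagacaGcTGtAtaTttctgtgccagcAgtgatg
Trbv13-2 was 88.8% identical to Trbv13-1 and 91.8% identical to Trbv13-3, and Trbv13-1 and Trbv13-3 were 86.1% identical. All 3 genes sat at whole estimated reads in all 3 libraries, within a tolerance of 0.02 reads.

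The last 42 bases of the V exon are given for 6 of the 8 segments whose share intervals lay apart in a comparison below, because this end enters the junction of the receptor. Capitals mark the codon of the conserved cysteine that opens the third loop and the bases after it. The ends are those of the annotated exons, with 21 capitals in Trbv3 and 14 to 17 in the others. Whether each annotated end is the point of joining was not checked.
Trbv13-2: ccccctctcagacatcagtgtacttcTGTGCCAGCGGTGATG
Trbv3: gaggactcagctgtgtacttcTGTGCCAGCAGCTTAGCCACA
Trbv19: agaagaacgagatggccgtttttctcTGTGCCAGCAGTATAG
Trbv12-2: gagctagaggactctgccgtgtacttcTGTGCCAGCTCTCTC
Trbv29: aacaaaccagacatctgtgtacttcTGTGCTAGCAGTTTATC
Trbv31: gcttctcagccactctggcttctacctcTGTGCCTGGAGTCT
The coordinates are chr6:41121791-41121832 for Trbv13-2, chr6:41048787-41048828 for Trbv3, chr6:41179007-41179048 for Trbv19, chr6:41119323-41119364 for Trbv12-2 and chr6:41271840-41271881 for Trbv29, all on the plus strand. Trbv31 (chr6:41557693-41557734) lies on the minus strand, downstream of the constant genes, and joins by inversion.

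Values are CPM, reads scaled to a sum of 1000000 over the listed genes of each library. Depth, read from the CPM worth of 1 read, was estimated at 13.9 M reads (M, 1000000) in the aged fumarate library, 17.3 M in the aged vehicle library and 41.0 M in the young library, so shares of a like size have narrower intervals in the young library. The label of T cells was met by 8 of 8 T cell markers, which summed to 1928, 1630 and 2135 CPM in the aged fumarate, aged vehicle and young libraries, none of them at 0. Other lineages were present and differed between libraries: the 6 platelet and red cell markers summed to 142, 1099 and 10.1 CPM, the 6 basophil and mast cell markers to 64.0, 383 and 0.464 CPM, the 6 macrophage and monocyte markers to 5.27, 31.9 and 3.03 CPM and the 6 B cell markers to 8.73, 11.2 and 5.32 CPM, in the same order. The 3 measured markers of gamma-delta T cells, which use other receptor loci, summed to 5.90, 6.37 and 6.51 CPM. Among the 5 NK cell markers measured, with a sum of 55.8, 42.7 and 31.2 CPM, Eomes was at 47.4, 26.9 and 29.7 CPM. Activated CD8 T cells also express Eomes. Klra8 (0, 4.51 and 0.0732), Klre1 (6.21, 8.40 and 1.05) and Tyrobp (1.23, 2.55 and 0.244 CPM) were highest in the aged vehicle library. Klrb1c, at 1.01, 0.405 and 0.0732 CPM, was highest in the aged fumarate library. Of the macrophage markers 2 were at 0 in the aged fumarate library and 1 in the young library, and of the NK markers Klra8 was at 0 in the aged fumarate library. The part of these cells in the CPM differences below was not tested. Shares within the V total have V reads alone in their denominator and do not move with the scaling of a library.

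The constant genes gave most of the reads of the locus. Trbc1 was at 194 CPM in the aged fumarate, 166 CPM in the aged vehicle and 188 CPM in the young library, and Trbc2 at 297, 251 and 311 CPM in the same order. Per kilobase of annotated exon, the level of Trbc2 was 429, 363 and 449 CPM and that of Trbc1 259, 222 and 251 CPM, so Trbc2 was the higher of the pair in every library. Trbc2 took 60.5% of the reads of the pair (interval 59.3% to 61.7%) in the aged fumarate library, 60.1% (59.0% to 61.3%) in the aged vehicle library and 62.3% (61.7% to 63.0%) in the young library. Both aged intervals lay below the young one, the aged fumarate interval by a gap too small to show in these digits. These intervals do not cover the error of dividing reads between the pair, which was not measured, so no difference in the split is read from them.

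The split between Trbc1 and Trbc2 is uncertain, since their first coding exons differ at 1 of 375 positions. The 60 bases around that position, which stands in capitals, are given from GENCODE M21 for Trbc1 (chr6:41538447-41538506) and Trbc2 (chr6:41546959-41547018), both on the plus strand of GRCm38.
Trbc1: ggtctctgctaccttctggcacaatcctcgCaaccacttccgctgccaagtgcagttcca
Trbc2: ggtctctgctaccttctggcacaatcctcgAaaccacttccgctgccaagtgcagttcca
The whole exons were 99.7% identical. Estimated reads of each gene were fractional in all 3 libraries (2684.65, 2872.23 and 7694.37 for Trbc1 and 4111.33, 4331.80 and 12729.7 for Trbc2 in the aged fumarate, aged vehicle and young libraries), whereas their sums lay within 0.0194, 0.0319 and 0.0713 reads of a whole number. The sum of the pair does not depend on how reads were divided between them.

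Summed over all 23 rows, the locus was at 631 CPM in the aged fumarate, 544 CPM in the aged vehicle and 641 CPM in the young library. The log2 ratio of this sum was −0.24 (interval −0.27 to −0.20) for aged vehicle over young, 0.21 (0.17 to 0.26) for aged fumarate over aged vehicle and −0.02 (−0.06 to 0.01) for aged fumarate over young. When libraries were scaled to Cd3e, Cd3d, Cd3g and Cd247, the genes of the receptor's signalling chains, the first of these ratios turned to 0.10, the second to −0.03 and the third to 0.08. The V rows alone summed to 140, 126 and 143 CPM, and the C genes to 491, 417 and 498 CPM. For each 100 reads of the C genes there were 28.6 V reads in the aged fumarate, 30.3 in the aged vehicle and 28.6 in the young library. Fewer T cells and less receptor RNA per T cell cannot be told apart in these libraries.

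**Figure D1:**
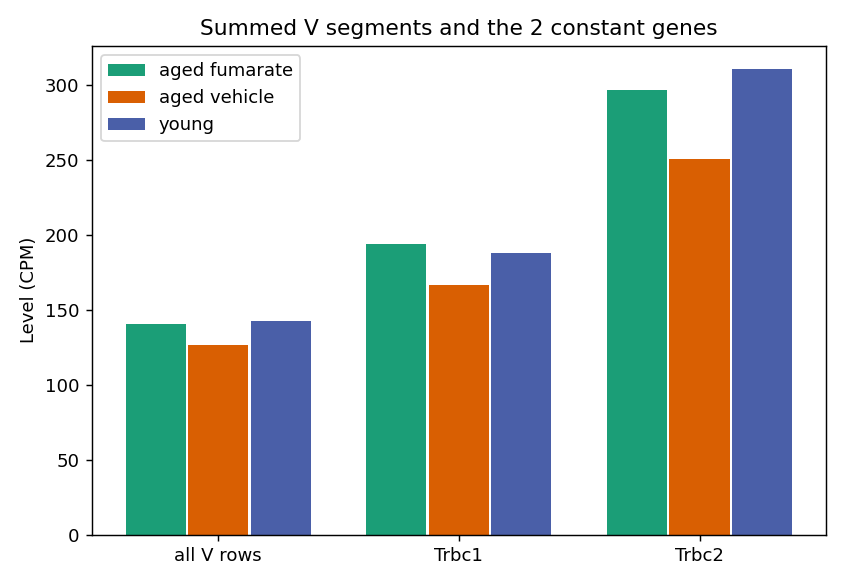
Level in CPM (y axis, linear from 0) of the summed V rows, Trbc1 and Trbc2 (x axis) in the aged fumarate, aged vehicle and young libraries, 1 library per bar and no error bars. For Trbc2 the bars stand at 297, 251 and 311 CPM, and the aged vehicle bar is the lowest in all 3 sets.

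Among the V segments, Trbv13-2, which encodes the chain long known as V beta 8.2 in mouse immunology, held the largest share in all 3 libraries, although in the young library its interval overlapped that of Trbv3 (9.34%, 8.60% to 10.1%). It was at 26.1 CPM in the aged fumarate, 21.8 CPM in the aged vehicle and 13.9 CPM in the young library. Its share of V reads was 18.6% (16.9% to 20.4%), 17.3% (15.7% to 18.9%) and 9.76% (9.01% to 10.6%) in that order. The intervals of the aged libraries overlapped each other and both lay above the young interval. The shares of its relatives near it were not higher in the aged libraries. Trbv13-1 took 7.04%, 5.77% and 7.32% of V reads in the aged fumarate, aged vehicle and young libraries, and Trbv13-3 took 3.03%, 3.53% and 4.36%. Trbv13-2 thus made up 64.8% of the reads of its family in the aged fumarate, 65.0% in the aged vehicle and 45.5% in the young library.

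**Figure D2:**
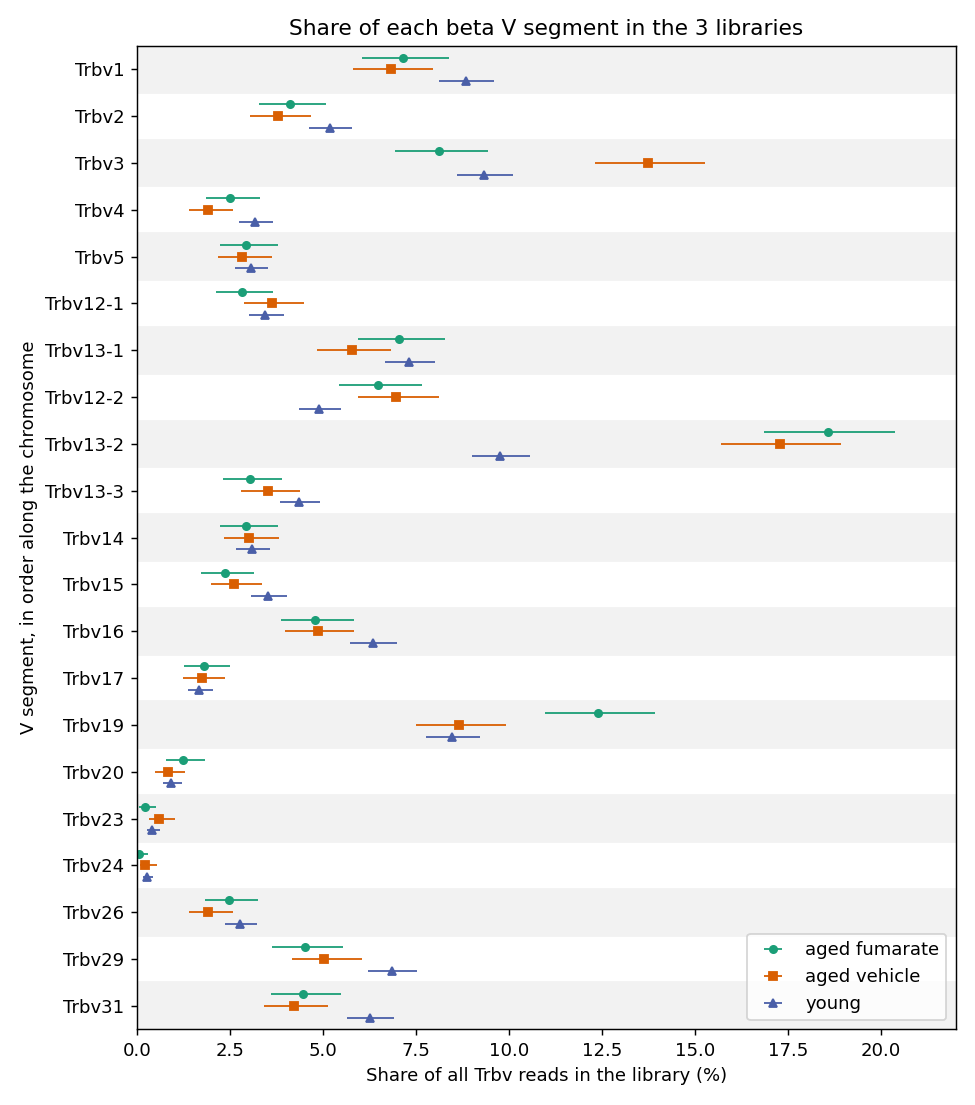
Share of Trbv reads in percent (x axis) for the 21 V segments, in order along the chromosome from top to bottom (y axis), with points for the aged fumarate (circles), aged vehicle (squares) and young (triangles) libraries and bars for the 95% exact interval of counting. Trbv13-2 lies at 18.6%, 17.3% and 9.76%, and Trbv3 is set apart in the aged vehicle library at 13.7%.

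The comparison of aged vehicle with young T cells asks how the receptor pool of activated cells differed with age. Of 21 V segments, 7 had a higher and 14 a lower share in the aged vehicle library, and for 7 the counting intervals of the libraries did not overlap. The V total has no counterpart for other genes, so the background was taken from intervals of each row's share of all reads in its library: these lay apart for 49.4% of all 17796 rows and for 11 of the 21 V rows, a count near the background. Higher among these 7 were Trbv13-2, with a share ratio of 1.77, Trbv3 and Trbv12-2. Trbv3 was at 17.4 CPM in the aged vehicle and 13.3 CPM in the young library, shares of 13.7% (12.3% to 15.3%) and 9.34% (8.60% to 10.1%). Trbv12-2, which lies between Trbv13-1 and Trbv13-2, was at 8.80 and 6.98 CPM, shares of 6.96% (5.93% to 8.11%) in the aged vehicle and 4.89% (4.35% to 5.47%) in the young library. Its relative Trbv12-1 took 3.62% and 3.45%, with intervals that overlapped widely, and the pair was 89.1% identical over 293 coding bases of the V exon.

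The segments with lower shares in the aged vehicle library, again by intervals that did not overlap, were Trbv1, Trbv4, Trbv29 and Trbv31. Trbv1, the V gene farthest upstream, was at 8.63 CPM in the aged vehicle and 12.6 CPM in the young library, shares of 6.83% (5.80% to 7.97%) and 8.84% (8.13% to 9.60%). Trbv29 was at 6.37 and 9.78 CPM, shares of 5.04% (4.16% to 6.04%) in the aged vehicle and 6.86% (6.22% to 7.54%) in the young library. Trbv31 was at 5.33 and 8.93 CPM, shares of 4.22% (3.41% to 5.14%) in the aged vehicle and 6.26% (5.65% to 6.91%) in the young library. Trbv4 was at 2.43 and 4.54 CPM, shares of 1.92% (1.39% to 2.59%) in the aged vehicle and 3.18% (2.75% to 3.66%) in the young library. These segments lay toward both ends of the locus, but segments between them also had lower shares. Trbv26, Trbv15 and Trbv16 had share ratios of 0.695, 0.741 and 0.765, with overlapping intervals, beside 0.772 for Trbv1. Since shares sum to 100%, a high Trbv13-2 lowers the others: with Trbv13-2 left out of the total, 8 of the other 20 segments had a higher share in the aged vehicle library and 12 a lower one.

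A further question was how the pool of fumarate-treated aged mice differed from that of aged mice given vehicle. Shares were higher for 11 and lower for 10 of 21 V segments in the aged fumarate library, and intervals did not overlap for 2 segments, Trbv3 and Trbv19. By the share of all reads, intervals lay apart for 27.4% of all rows and for the same 2 V rows. Trbv3 was at 11.4 CPM in the aged fumarate and 17.4 CPM in the aged vehicle library, shares of 8.12% (6.95% to 9.43%) and 13.7% (12.3% to 15.3%), a ratio of 0.591. Trbv19, which encodes the chain known as V beta 6, was at 17.4 CPM in the aged fumarate and 10.9 CPM in the aged vehicle library, shares of 12.4% (11.0% to 13.9%) and 8.66% (7.51% to 9.92%), a ratio of 1.43. Trbv13-2 had a ratio of 1.07, and the ratios of Trbv1, Trbv16, Trbv17, Trbv14, Trbv31 and Trbv5 lay between 0.969 and 1.06. The outermost ratios belonged to the segments with the fewest reads: Trbv24 had 1 read in the aged fumarate and 5 in the aged vehicle library, and Trbv23 had 4 and 13 reads.

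For aged fumarate over young, 5 of 21 V segments had a higher and 16 a lower share. Intervals of the V share did not overlap for 4 of them, and by the share of all reads intervals lay apart for the same 4 of 21 V rows and for 38.7% of all rows. Higher were Trbv13-2, with a share ratio of 1.90, and Trbv19, at 12.4% in the aged fumarate and 8.48% (7.78% to 9.23%) in the young library. Lower were Trbv29, at 4.52% (3.64% to 5.54%) in the aged fumarate and 6.86% in the young library, and Trbv31, at 4.47% (3.60% to 5.49%) and 6.26%. Trbv3, high in the aged vehicle library, took 8.12% in the aged fumarate and 9.34% in the young library, with overlapping intervals. Trbv12-2 took 6.48% (5.42% to 7.66%) in the aged fumarate and 4.89% (4.35% to 5.47%) in the young library, intervals that overlapped narrowly. Trbv1 took 7.15% (6.04% to 8.38%) in the aged fumarate and 8.84% (8.13% to 9.60%) in the young library, again with overlapping intervals. With Trbv13-2 left out of the total, 7 of 20 segments had a higher share in the aged fumarate than in the young library.

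**Figure D3:**
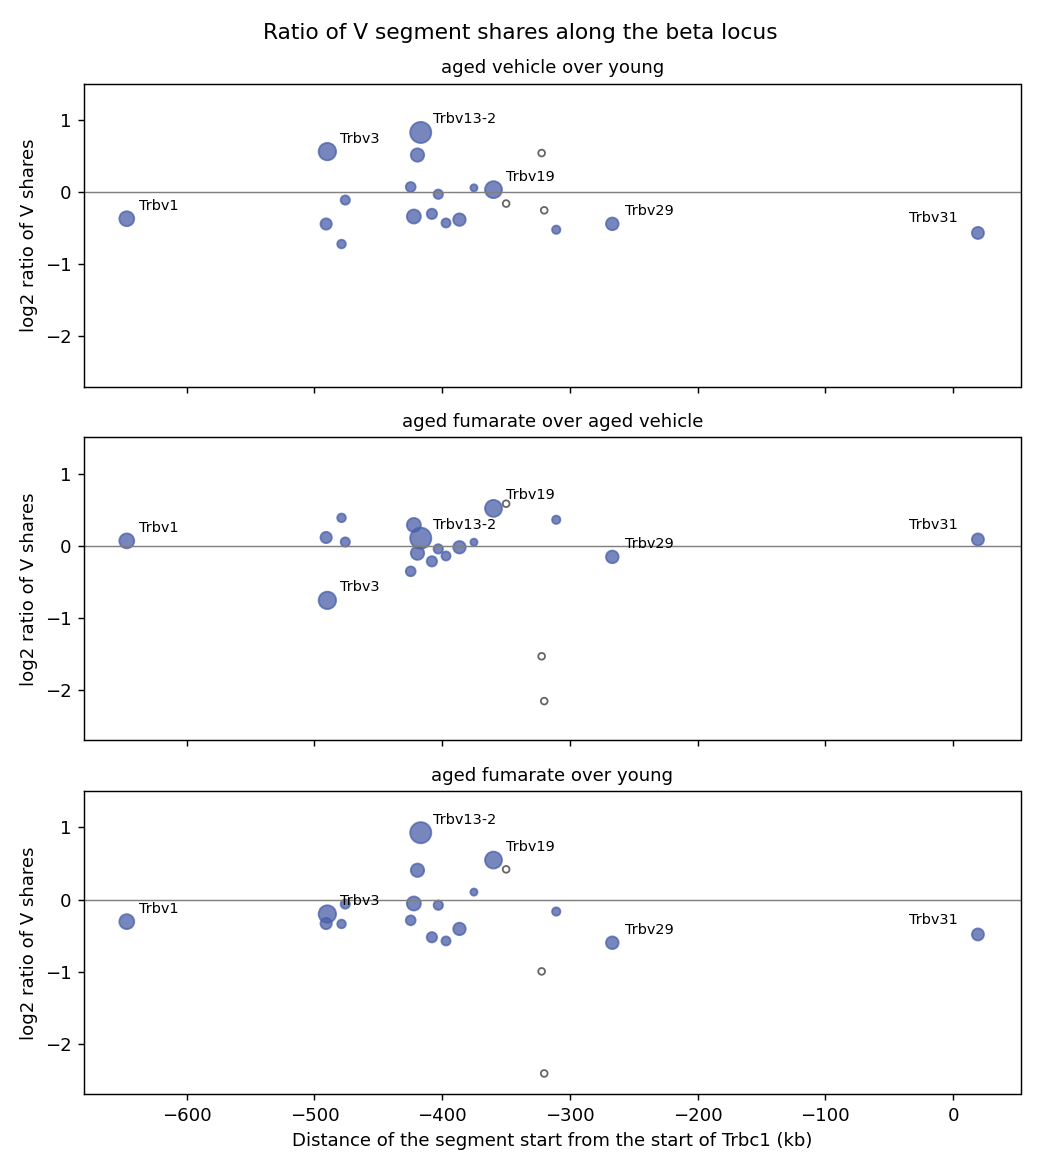
Log2 ratio of V shares (y axis) against the distance of each V segment's start from the start of Trbc1 in kb (x axis) for aged vehicle over young, aged fumarate over aged vehicle and aged fumarate over young, with point area scaled to the mean share and open points for segments with a mean share under 1%. Trbv13-2 is the highest point of the top and bottom panels, and its neighbours in the Trbv12 and Trbv13 block lie on both sides of 0.

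Along the chromosome, the interleaved Trbv12 and Trbv13 genes (5 rows) together took 37.9% of V reads (35.8% to 40.1%) in the aged fumarate, 37.2% (35.1% to 39.2%) in the aged vehicle and 29.8% (28.6% to 31.0%) in the young library. The 5 upstream rows from Trbv1 to Trbv5 took 24.8% (22.9% to 26.8%), 29.1% (27.2% to 31.1%) and 29.6% (28.4% to 30.8%) in the same order. The 6 rows from Trbv14 to Trbv20 took 25.5%, 21.7% and 24.0%, and the 4 rows from Trbv23 to Trbv29 took 7.25%, 7.79% and 10.3%. Within the Trbv12 and Trbv13 block, aged vehicle minus young was 7.51 percentage points for Trbv13-2, 2.07 for Trbv12-2, 0.165 for Trbv12-1, −0.833 for Trbv13-3 and −1.55 for Trbv13-1.

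V reads were spread less evenly in the aged libraries. The 3 most abundant V segments held 39.1% of V reads in the aged fumarate, 39.7% in the aged vehicle and 27.9% in the young library. These were Trbv13-2, Trbv19 and Trbv3 in the aged fumarate library, Trbv13-2, Trbv3 and Trbv19 in the aged vehicle library and Trbv13-2, Trbv3 and Trbv1 in the young library. The top 10 held 77.6%, 77.2% and 73.3%. The effective number of V segments, the exponential of the Shannon entropy of the shares, was 15.1 in the aged fumarate, 15.2 in the aged vehicle and 17.1 in the young library, against 21 if all shares were equal. Without the most abundant segment it was 15.5, 15.4 and 16.3, so the difference between the aged and young libraries was smaller without Trbv13-2.

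**Figure D4:**
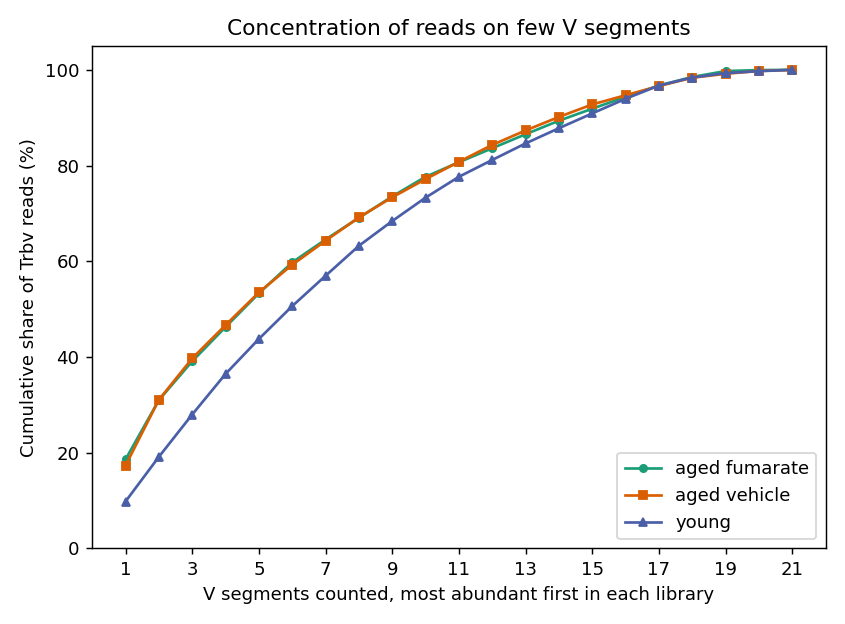
Cumulative share of Trbv reads in percent (y axis) over V segments ranked from the most to the least abundant within each library (x axis, number of segments), with 1 line each for the aged fumarate, aged vehicle and young libraries. The aged lines run together, and over the first 10 segments above the young line, with 39.1%, 39.7% and 27.9% of reads on the top 3 segments.

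The distance between V profiles, as the percentage points of V reads that would have to move to turn the profile of one library into that of the other, was 14.6 for aged vehicle and young, 8.89 for aged fumarate and aged vehicle and 14.7 for aged fumarate and young. The 3 pairs share libraries and are not independent. Without Trbv13-2 the distances to the young library were 11.6 for aged vehicle and 10.1 for aged fumarate. Without Trbv3 the distance between the aged libraries was 6.02. Counting error alone sets libraries of the same V profile some distance apart, and more so with fewer V reads. The aged libraries had the fewest, 1945 in aged fumarate and 2183 in aged vehicle. How much of each distance, with or without those segments, came from counting error was not computed, and the distances carry no interval.

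The other named segments, those among the 10 with the highest mean share, had share intervals that overlapped in every comparison. Trbv16 took 4.78%, 4.86% and 6.34% of V reads in the aged fumarate, aged vehicle and young libraries, and the aged vehicle interval (3.99% to 5.84%) just met that of the young library (5.73% to 7.0%). Trbv2 took 4.11%, 3.80% and 5.18% in the same order, with overlapping intervals. The lower ranks were alike in all 3 libraries: by level per kilobase of exon, Trbv17, Trbv20, Trbv23 and the pseudogene Trbv24 stood at places 18 to 21 in each. Trbv24 had 1, 5 and 16 estimated reads, or 0.0722, 0.290 and 0.390 CPM, and Trbv23 had 4, 13 and 24. By the same measure of level Trbv13-2 stood first in each library, at 76.6, 64.2 and 41.0 CPM per kilobase in the aged fumarate, aged vehicle and young libraries. Next in the young library were Trbv1 at 30.2, Trbv3 at 29.3, Trbv13-1 at 28.5 and Trbv29 at 27.7 CPM per kilobase, which followed each other closely. In the aged fumarate library Trbv19 came next at 30.7, and in the aged vehicle library Trbv3 at 38.2 CPM per kilobase.

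By the log2 ratio of CPM + 1, which makes ratios of low genes smaller, none of the 23 rows was 2-fold higher or lower in any of the 3 comparisons. Over all 17796 rows, the share past this limit was 8.96% upwards and 1.71% downwards in aged vehicle over young, 0.258% and 5.87% in aged fumarate over aged vehicle and 3.99% and 1.95% in aged fumarate over young. At a limit of 1.5-fold, Trbv13-2 was higher in aged vehicle over young (log2 ratio 0.61), 1 of 23 rows against 16.1% of all rows, and Trbv4 (−0.69) and Trbv31 (−0.65) were lower, 2 of 23 against 5.91%. In aged fumarate over aged vehicle Trbv19 was higher (0.62), 1 of 23 rows against 2.10%, and none was lower, against 11.5%, with Trbv3 at −0.57. In aged fumarate over young Trbv13-2 was higher (0.86), 1 of 23 rows against 8.89%, and none was lower, against 6.00%. The median log2 ratio of the 23 rows was −0.23, 0.16 and −0.21 in aged vehicle over young, aged fumarate over aged vehicle and aged fumarate over young, beside 0.04, −0.04 and 0.00273 for all rows. Scaling to the 4 CD3 and zeta chain genes shifts every log2 ratio of plain CPM by 0.34, −0.24 and 0.10. For the first 2 comparisons this shift is larger than the members' median and of opposite sign. The medians are of CPM + 1, by which low rows shift less, and were not computed again under this scaling.

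The other genes of the receptor complex were measured in the same libraries. Of 11 genes (Trac, Cd3e, Cd3d, Cd3g, Cd247, Cd4, Cd8a, Cd8b1, Lck, Zap70 and Lat), none was past 1.5-fold in any comparison. Their median log2 ratios were −0.40, 0.21 and −0.15 in aged vehicle over young, aged fumarate over aged vehicle and aged fumarate over young. Over all rows, 16.1%, 2.10% and 8.89% were 1.5-fold higher and 5.91%, 11.5% and 6.00% were 1.5-fold lower in the same order. Trac, the constant gene of the alpha chain that pairs with the beta chain, was at 192 CPM in the aged fumarate, 167 CPM in the aged vehicle and 243 CPM in the young library. Cd3e, a signalling chain of the complex, was at 106, 77.1 and 115 CPM. Cd4 stood at 181, 180 and 238 CPM, and Cd8a, the other coreceptor, at 218, 187 and 229 CPM. Which of these cells carried a given V segment was not measured.

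Of 12 listed genes of V(D)J recombination 10 were measured, with median log2 ratios of −0.27, 0.07 and −0.21 in the same order of comparisons. None was 1.5-fold higher in any comparison, beside 16.1%, 2.10% and 8.89% of all rows in the same order. Dntt alone was 2-fold lower in both aged libraries against the young one, 1 of 10 beside 1.71% of all rows for aged vehicle and 1.95% for aged fumarate. At 1.5-fold, 3 of 10 were lower in aged vehicle over young beside 5.91% of all rows, and 2 of 10 in aged fumarate over young beside 6.00%. Dntt encodes terminal deoxynucleotidyl transferase, which adds bases at the junctions in developing lymphocytes. It was at 0 CPM in the aged fumarate library, where a count of 0 allows up to 0.217 CPM, at 0.116 CPM in the aged vehicle library and at 2.34 CPM in the young library. At 1.5-fold, Xrcc5, a subunit of the Ku end-binding complex, was lower in both aged libraries, at 43.1 CPM in the aged fumarate, 40.9 CPM in the aged vehicle and 71.1 CPM in the young library. Hmgb2, a DNA-bending cofactor of the recombinase, was at 326, 278 and 472 CPM, past 1.5-fold in aged vehicle over young alone. Rag1 and Rag2 were not analysed here.

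Values of Trbv4 and Trbv5 are less certain than those of the other V genes. The listed long noncoding RNA gene 5830405F06Rik (chr6:41055883-41063102, plus strand) covers both and was at 0.884, 0.717 and 0.887 CPM in the aged fumarate, aged vehicle and young libraries. Trbv4 sat at 48.9, 42 and 186 estimated reads and Trbv5 at 56.9, 61.6 and 179, with fractions in 5 of these 6 values, while the sum of all 3 genes was 118, 116 and 401 reads. The other 19 V rows sat at whole reads in every library, within 0.02 reads. The total of V reads behind the shares was 1945 in the aged fumarate, 2183 in the aged vehicle and 5848 in the young library.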

How the data were processed

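The deposited table holds 1 column for each of the 3 libraries, matched to samples by their descriptions. Per the labels' protocols, a SMARTER mRNA kit and 500 ng of total RNA went into each library. The submitters' processing notes name mm10, STAR and Partek; for versions, annotation and strand, nothing is stated in the labels. Although its name speaks of raw counts, the deposited values are CPM: each column sums to 1000000. The step between low values gave the worth of 1 read and so the depth, but 58.3% to 68.2% of genes sat at whole reads, so no count model was fitted, and estimated reads served for the 95% Clopper-Pearson intervals. A value of 0 allows up to 3 reads.

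V shares are CPM of a row over the CPM of all Trbv rows. Differences are log2 ratios of CPM + 1 with a limit of 2-fold. Ends in the table were moved back by 1 base. The segments, lists and measures were chosen with earlier results of these data known. Named segments are the 10 with the highest mean share, both C genes and any past 2-fold with at least 50 reads. Trbv4 and Trbv12-1 were added after their values were seen, as were other low segments. The background of intervals that lie apart was also added after values were seen. Planned J shares could not be made. The calls and intervals were tested on simulated data. Alternatives were other denominators, lengths, scalings, added constants and limits. Sequences are from GENCODE M21 transcripts. Tables were handled in pandas 2.3.3 and numpy 2.4.6 (Python 3.11.15), intervals came from scipy 1.17.1, and plots from matplotlib 3.10.9.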

Additional observations from a re-analysis of the deposited data

How the results depend on the processing

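Over the 10 named segments the direction of each share difference was the same with all Trb rows or V genes alone in the total. It was also the same with CPM per row length or exon length and without Trbv4 and Trbv5, the last 2 chosen after seeing the data. A segment's own length cancels in such a ratio, so each setting moved all ratios of a comparison by a common factor. For Trbv13-2 in aged vehicle over young the share ratio ran from 1.74 to 1.85. The same direction was thus largely given in advance. The share of Trbv13-2 in the aged fumarate, aged vehicle and young libraries was 4.13%, 4.02% and 2.17% of all Trb rows, 22.2%, 20.5% and 11.8% per row length and 21.7%, 20.1% and 11.5% per exon length. The effective number of V segments was 11.8, 12.01 and 15.4 by the inverse Simpson index, 13.5, 13.8 and 15.4 without Trbv4 and Trbv5 and, in the young library, 16.3 without its most abundant segment. The distance without the segment of largest difference was 11.6 for aged vehicle over young and 10.1 for aged fumarate over young. At 1.5-fold, 1 row was higher in each comparison and 2 were lower in aged vehicle over young, while no other setting gave a call. The log2 ratio of the summed locus for aged vehicle over young was −0.29 with TMM and −0.28 with median of ratios. Scaled to the 4 CD3 and zeta chain genes it was 0.10, and −0.0272 for aged fumarate over aged vehicle and 0.0765 for aged fumarate over young, and the cause was not tested. Alternatives for J segments could not be run. No paired analysis was possible because each group has 1 library. Depth limits the segments under 50 reads, and differences between mice cannot be seen.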

Other observations

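Other listed genes lie between the beta segments. Prss2, a trypsinogen gene of the cluster that sits inside the mouse beta locus just upstream of its D-J-C part (chr6:41521787-41525079), was at 0.0722 CPM in the aged fumarate, 1.22 CPM in the aged vehicle and 0.171 CPM in the young library, from 1, 21 and 7 estimated reads. Gm2663 (chr6:40995830-40999479, minus strand) was at 0.289, 0.637 and 0.0638 CPM in the same order. The library with the highest value of both was the aged vehicle library, which also had the highest sums of platelet, basophil and macrophage markers, and the part of these in the values was not tested. 1810009J06Rik (chr6:40964754-40968435) was at 0.144 and 0.253 CPM in the aged fumarate and young libraries and was listed at 0 in the aged vehicle library.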
